A study of Mus musculus with 20 samples.

Results

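The respiratory chain genes described here are the nuclear genes for subunits of the 5 oxidative phosphorylation complexes, with the Nduf assembly factors that share the name of complex I. They were chosen by symbol (Nduf with a, b, c, s or v, Sdha to Sdhd, Uqcr, Cox4 to Cox8 and Atp5, without pseudogenes), and 89 such genes were listed both among the 15855 genes of the culture table and among the 15333 genes of the tumor table. They comprise 7 core subunits, 29 accessory subunits and 8 assembly factors of complex I, 4 genes of complex II, 8 of complex III, 17 of complex IV and 16 of complex V.

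The study asked whether cancers turn B-cell precursors into macrophages. B-MF are macrophages grown from sorted BM B cells of untreated young female mice in conditioned medium of 4T1.2 breast cancer cells, and Mo-MF are macrophages grown from monocytes in the same medium. Each was profiled by single-cell RNA sequencing (scRNA-seq) in 2 cultures, and TAM, the macrophages purified from 4T1.2 cancers, in 4 mice. The methods name C57BL/CJ and BALB/CJ mice for B-MF cultures without saying which strain gave the sequenced ones, and the labels do not say whether the culture numbers mark separate mice. From untreated mice come also 12 ATAC-seq libraries of CSF1R+ and CSF1R- B-cell precursors (3 libraries each from BM and spleen), which the labels call macrophages and which are used only for promoters.

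Complex I takes electrons from NADH and complex II takes them from succinate, complex III passes them to cytochrome c, and complex IV hands them to oxygen. Complexes I, III and IV pump protons, and complex V uses the gradient to make ATP. Complexes I, III, IV and V also hold subunits encoded by mitochondrial DNA, so both genomes contribute to them. Macrophages with alternative activation are known for oxidative metabolism, while neutrophils have few mitochondria and live largely on glycolysis.

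The members lie apart in the genome, and their promoters were read for short letter patterns that some of them share. RefSeq promoters (build GRCm38.p6, 250 bases before to 50 after the start) were matched by symbol or a unique synonym for 74 of the 89 members, on 18 chromosomes. The core GCGCATGC of NRF1, a factor known for binding genes of the respiratory chain, was present on either strand in 12 of the 74 (16.2%), compared with 6.19% of 7027 promoters of genes tested in the cultures and 2.83% of all 27025 promoters. Of these 12, 9 have the core before the start and are shown as 30 bases each, written 5′ to 3′ on the strand of the gene, with capitals marking the core (GCGCATGC or, read on the other strand, GCATGCGC, merged where both overlap). They show how widely the same letters recur, from accessory and assembly genes of complex I to complexes II, IV and V.
Ndufa11, chr17:56717692-56717721, + strand: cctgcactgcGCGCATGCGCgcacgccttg
Ndufa6, chr15:82354355-82354384, - strand: ccgcggtagaGCATGCGCattgcagagccc
Ndufa8, chr2:36049339-36049368, - strand: gcgcttgcgcgtcgctggagacGCATGCGC
Ndufaf4, chr4:24897960-24897989, + strand: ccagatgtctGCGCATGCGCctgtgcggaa
Sdhb, chr4:140961207-140961236, + strand: agcccagtggGCATGCGCcctacgggccgc
Cox6a1, chr5:115349101-115349130, - strand: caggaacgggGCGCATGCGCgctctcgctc
Atp5g2, chr15:102671070-102671099, - strand: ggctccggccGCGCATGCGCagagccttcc
Atp5k, chr5:108434430-108434459, - strand: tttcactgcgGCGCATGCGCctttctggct
Atp5l, chr9:44920963-44920992, - strand: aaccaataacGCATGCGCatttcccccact

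The YY1 core AAGATGGC was in 10 of the 74 promoters (13.5%), compared with 5.62% of the promoters of genes tested in the cultures. The ETS core CCGGAAG was in 17 (23.0%), close to the 22.0% of those genes, and any of the 3 cores was in 33 (44.6%, against 30.8%). In the ATAC-seq lists, 68 of the 74 promoters (91.9%) overlapped a peak in each of the 12 libraries of B-cell precursors, as did 87.5% of the promoters of genes tested in the cultures. The other 6 (Atp5f1, Atp5g2, Ndufa6, Ndufb5, Ndufs7 and Ndufs8) overlapped no listed peak in any library. Whether the lists are complete at these 6 promoters could not be checked. By the presence of a listed peak, none of the 74 promoters kept separated CSF1R+ from CSF1R- cells or BM from spleen. Where a gene had several promoters, the one with a peak in the most libraries had been kept, for members and other genes alike. This choice favors promoters with peaks in all libraries, so a promoter with peaks in only some groups of cells could be missed. A match is a description of the letters and not a bound site.

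The values below are corrected counts, that is, transcript counts that the SCTransform method scaled to a common depth per cell. The culture table held 5237 and 5326 cells of the 2 B-MF cultures and 4846 and 5389 cells of the 2 Mo-MF cultures. Cells with 15% or more of their counts in mitochondrial-encoded (mt-) genes were left out (336 and 224 B-MF, 141 and 134 Mo-MF), and a median of 3442 to 3938 genes per cell was detected in the others. Libraries shared 4 to 14 cell barcodes in pairs in the cultures and 0 to 4 in the tumor, and no doublet caller was run. Csf1r, the M-CSF receptor, had at least 1 count in nearly all cultured cells, and the summed count of 8 macrophage genes was 156 and 151 per cell in B-MF against 102 and 101 in Mo-MF. Cells with at least 4 of 5 neutrophil genes (S100a8, S100a9, Csf3r, Retnlg and Cxcr2) numbered 525 and 526 in the Mo-MF cultures and 2 and 0 in the B-MF cultures, and the summed neutrophil genes came to 149 and 120 per cell in Mo-MF and to 1.05 and 0.704 in B-MF. The sums and the counts of called members are therefore also given without these cells. Csf1r-positive cells with exactly 3 of the 5 neutrophil genes were not left out by this step. They numbered 544 and 532 in the Mo-MF cultures and 3 and 2 in the B-MF cultures.

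B-MF held more respiratory chain RNA than Mo-MF, in small steps spread over many genes. The 89 members summed to 363 and 362 counts per cell in B-MF against 321 and 326 in Mo-MF, 12.1% more in B-MF. Both B-MF cultures lay above both Mo-MF cultures (exact permutation test, two-sided p = 0.333, the smallest that 2 against 2 libraries can give). Of the 83 members with a mean of at least 0.1 counts per cell, 41 were higher in B-MF, against a background of 22.2% of all 8664 genes tested. None was lower (15.5% of all genes were), and 2 were lower at an unadjusted p under 0.05 (limma on log2 of the mean count + 0.1, Benjamini-Hochberg adjusted p under 0.05). The median log2 difference of the members was 0.15, compared with 0.03 over all genes, and 65 of the 83 lay above that value.

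These counts depended on the libraries. Without Mo-MF replicate 1 only 9 of 84 members were called higher, against 12.1% of all genes, and without Mo-MF replicate 2 only 12 of 83, against 11.7%. These shares lie near the background. Without B-MF replicate 1 they numbered 50 of 83, against 26.7% of all genes, and without B-MF replicate 2, 56 of 85, against 47.6%. In each of these fits the 41 members kept a positive difference, and 9 of the 41 (Ndufs8, Ndufb5, Ndufb11, Ndufc2, Ndufa4, Cox4i1, Cox5a, Atp5g2 and Atp5o.1) stayed called in all 4. Each of the others lost its call without at least 1 of the libraries. Without the neutrophil-rich cells, 31 of 85 members were higher, against 20.3% of all genes, and 1 was lower, against 14.8%. The median was 0.13, compared with 0.02 over all genes, and the summed counts were 10.2% higher in B-MF. By complex, the sums without these cells were higher in B-MF by 17.5% for the complex I core, 6.75% for accessory subunits, 4.59% for assembly factors, 3.79% for complex II, 10.9% for complex III, 13.4% for complex IV and 9.49% for complex V. Without cycling cells, which made up 11.5% and 10.7% of B-MF and 8.16% and 9.31% of Mo-MF, 36 of 83 members were higher, against 20.9% of all genes.

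**Figure D1:**
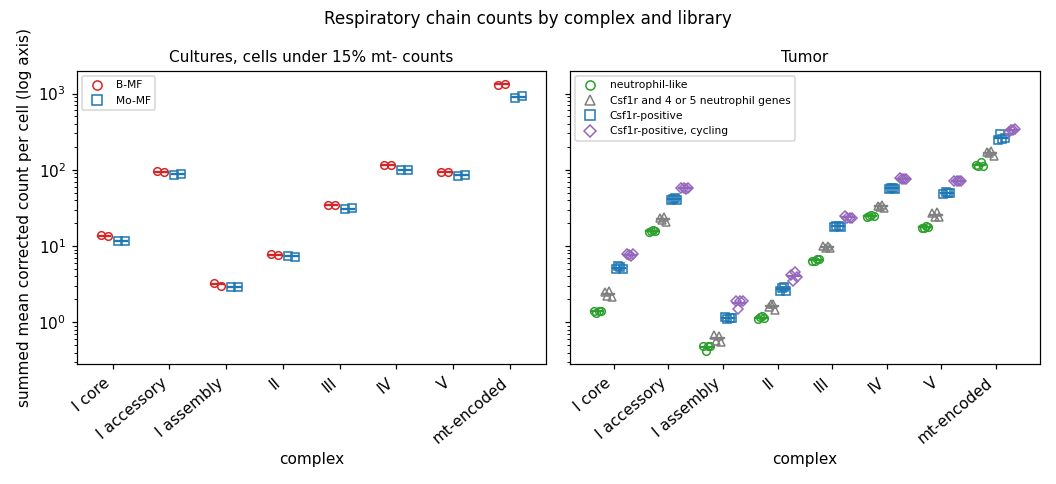
Summed mean corrected count per cell (log axis) of the genes of each complex in each library, in cultures (left) and tumor (right); each symbol is 1 library and the short line is the mean of the libraries. B-MF lie slightly above Mo-MF in each group, and of the 4 tumor classes drawn the neutrophil-like cells lie lowest and the cycling Csf1r-positive cells highest.

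Complex I core subunits bind NADH and carry electrons along the iron-sulfur clusters to the quinone. They were the group with every tested member higher in B-MF (7 of 7, against 22.2% of all genes, median log2 difference 0.21). Their sum was 14.0 and 13.5 counts per cell in B-MF against 11.5 in each Mo-MF culture, 19.5% more in B-MF. Ndufs8, an iron-sulfur subunit near the quinone site, had 1.56 and 1.49 counts in B-MF against 1.04 and 1.01 in Mo-MF. The cultures did not overlap, and the difference was the largest among the members (log2 0.54 ± 0.06 SE, adjusted p = 0.000134). Ndufs3, another subunit of the matrix arm, had 2.21 and 2.12 counts against 1.76 and 1.80 (log2 0.27 ± 0.06, adjusted p = 0.00544). Ndufv2, a subunit of the NADH-binding end, lay toward the lower end of the group, with 1.92 and 1.86 against 1.65 and 1.67 counts (log2 0.18 ± 0.05, adjusted p = 0.0309). Ndufs1 was no longer called without the neutrophil-rich cells (log2 0.15).

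The 29 accessory subunits surround the core and are needed for a stable complex I. Of them, 11 were higher in B-MF, against 22.2% of all genes, and 18 were not called (median log2 0.14, range -0.14 to 0.37). Ndufb11, a membrane arm subunit, had 4.41 and 4.33 counts in B-MF against 3.35 and 3.37 in Mo-MF (log2 0.37 ± 0.05, adjusted p = 0.000876). Ndufc2, also of the membrane arm, had 3.81 and 3.63 counts against 2.87 and 2.91 (log2 0.35 ± 0.06, adjusted p = 0.00149). In both genes the B-MF cultures stood clear of the Mo-MF cultures. The opposite end was held by Ndufa3, with 2.32 and 2.36 counts in B-MF against 2.59 and 2.60 in Mo-MF, and by Ndufb7, with 4.73 and 4.75 against 5.18 and 5.28. These genes did not overlap between the groups either, but missed the threshold (log2 -0.14 for each, adjusted p = 0.0682 and 0.0757), and Ndufa3 passed it as lower without the neutrophil-rich cells (log2 -0.18).

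Of all genes, 22.2% were higher in B-MF and 15.5% lower. None of the 7 tested complex I assembly factors was called, with 0 also at an unadjusted p under 0.05. They help to build the complex and are not part of it, and the tested ones ranged from Ndufaf7 at 0.115 to 0.141 counts per cell to Ndufaf8 at 1.11 to 1.22. Ndufaf2 had 0.382 and 0.317 counts in B-MF against 0.312 and 0.310 in Mo-MF (log2 0.12 ± 0.07), and Ndufaf1 had 0.250 and 0.213 against 0.206 and 0.209 (log2 0.11 ± 0.07). For both, replicate 1 of B-MF stood above the other 3 cultures, which lay close together. Replicate 2 of B-MF lay below replicate 1 for every assembly factor. Its cells had a median of 3442 genes detected, against 3938 in replicate 1 and 3891 and 3796 in Mo-MF. The part of this in the values was not tested. Ndufaf4 and Ndufaf7, the latter a methyltransferase, had overlapping values (log2 0.03 ± 0.07 and 0.06 ± 0.07). Ndufaf5 was at 0.0878 to 0.106 counts in the 4 cultures and was not tested.

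Complex II, which joins the tricarboxylic acid (TCA) cycle to the chain and has no mitochondrial-encoded subunit, differed least. Its 4 genes summed to 7.80 and 7.64 counts in B-MF against 7.35 and 7.28 in Mo-MF, 5.56% more in B-MF. The membrane anchor Sdhc was the only one called, with 1.76 and 1.75 counts against 1.48 and 1.47 (log2 0.24 ± 0.05, adjusted p = 0.00834). This share of 1 in 4 genes (25%) lies near the 22.2% of all genes that were higher. The iron-sulfur subunit Sdhb had 2.82 and 2.70 counts against 2.52 in each Mo-MF culture and was not called (log2 0.13 ± 0.06, adjusted p = 0.113). Sdha, the flavoprotein that oxidizes succinate, had 1.47 in each B-MF culture and 1.51 in each Mo-MF culture, and the other anchor, Sdhd, had 1.75 and 1.72 against 1.85 and 1.78. Neither Sdha nor Sdhd was called (log2 -0.04 and -0.06).

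In complex III, 5 of 8 genes were higher in B-MF (median log2 0.21), against 22.2% of all genes. The largest differences were those of Uqcr10, a small subunit with 5.43 and 5.70 counts in B-MF against 4.45 and 4.65 in Mo-MF (log2 0.28 ± 0.06, adjusted p = 0.00533), and of Uqcrh, the hinge protein for cytochrome c, with 8.30 and 8.25 against 6.86 and 7.10 (log2 0.24 ± 0.06, adjusted p = 0.00873). The Rieske iron-sulfur protein Uqcrfs1 and the core proteins Uqcrc1 and Uqcrc2 were also higher, at log2 0.24, 0.20 and 0.22. Uqcrq had 5.10 and 5.12 counts against 4.98 and 5.22 and overlapped (log2 0.00 ± 0.06), and Uqcrb had 4.44 and 4.48 against 4.10 and 4.23, which missed the threshold (log2 0.10 ± 0.06, adjusted p = 0.208). The sum was 34.5 and 34.7 in B-MF against 30.2 and 31.1 in Mo-MF, 13.0% more in B-MF.

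In complex IV, 7 of the 13 tested genes were higher in B-MF (median log2 0.18), against 22.2% of all genes. The sum was 114 and 115 counts per cell against 98.7 and 100.3, 15.4% more in B-MF. Ndufa4, a subunit once assigned to complex I, had 8.05 and 8.01 counts in B-MF against 6.02 and 6.17 in Mo-MF (log2 0.39 ± 0.05, adjusted p = 0.00064). Cox4i1, a regulatory subunit that binds ATP, had 25.7 and 25.6 counts against 19.8 and 20.1 (log2 0.36 ± 0.05, adjusted p = 0.00101). Both genes stood clear between the groups. Cox5b, with 6.01 and 6.11 counts against 6.16 and 6.27, and Cox7a1, the heart and muscle form of its subunit, with 0.203 and 0.179 against 0.200 and 0.192, were not called. Cox6b1 (7.84 and 7.62 against 7.68 and 7.66 counts) overlapped, and Cox7a2 (6.34 and 6.61 against 6.05 and 6.25) was not called. Between these lay Cox5a, Cox8a, Cox7b, Cox7a2l and Cox6a1, called at log2 0.32, 0.25, 0.23, 0.19 and 0.18.

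In complex V, 10 of the 15 tested genes were higher in B-MF (median log2 0.18), against 22.2% of all genes. The sum was 94.3 and 94.2 against 83.9 and 85.5 counts, 11.3% more in B-MF. Atp5o.1, the subunit of the stalk that keeps the catalytic head from turning, had 3.82 and 3.62 counts in B-MF against 2.76 and 2.69 in Mo-MF (log2 0.44 ± 0.06, adjusted p = 0.000478). Atp5a1 and Atp5b of the catalytic head were higher at log2 0.28 and 0.18. Atp5g1, Atp5g2 and Atp5g3 encode the same mature ring subunit, and all 3 were higher, from Atp5g2 with 10.1 and 9.91 counts against 7.95 and 8.06 (log2 0.32 ± 0.05, adjusted p = 0.00203) to Atp5g3 with 3.79 and 3.75 against 3.34 and 3.39 (log2 0.16 ± 0.05, adjusted p = 0.0465). Atp5b, Atp5g3 and Atp5h lost the call without the neutrophil-rich cells. Atp5k, with 3.53 and 3.63 counts against 3.72 and 3.81, and Atp5e, with 9.62 and 10.2 against 9.72 and 10.1, were not called (log2 -0.07 and 0.00). Small subunits of this kind have pseudogene copies in the genome, and how reads shared with them were assigned is unknown.

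**Figure D2:**
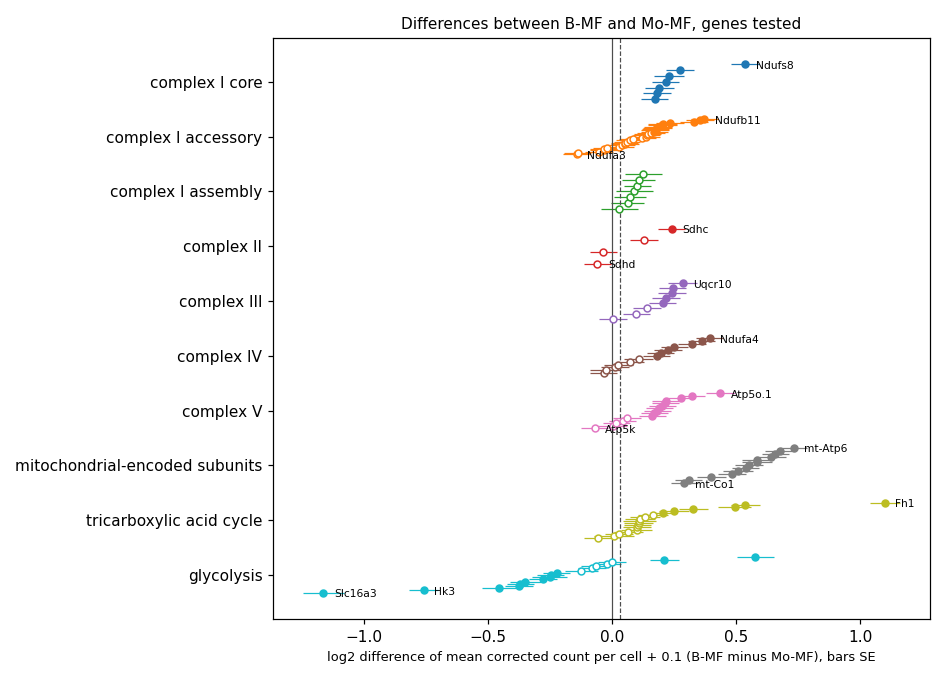
Log2 difference of the mean corrected count per cell + 0.1 between B-MF and Mo-MF (x axis, B-MF minus Mo-MF, bars are SE) for each tested gene of each complex and of 3 further lists; filled symbols passed an adjusted p of 0.05, and the dashed line is the median of all genes tested. The 7 core subunits of complex I and the 13 mitochondrial-encoded subunits all lie to the right with filled symbols, the 7 assembly factors of complex I are all open, and 15 of the 17 glycolysis genes lie to the left of 0, 10 of them filled.

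Several members have a paralog that other tissues use, and these were nearly silent in the cultures. Cox4i2 was at 0.00837 and 0.0112 counts in B-MF against 0.00128 and 0.000761 in Mo-MF, Cox6a2 at 0.04998 to 0.0663 over the 4 cultures, and Cox6b2 at 0.0278 to 0.0425. Ndufa4l2, a paralog of Ndufa4 known from hypoxia, was at 0.00184 and 0.00176 in B-MF and at 0 in Mo-MF. Atp5s, a factor related to complex V, was at 0.0904 to 0.116. With Ndufaf5, these made up the 6 members below the limit for testing.

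The 13 mitochondrial-encoded subunits, which are not among the 89, differed more than the nuclear ones. All 13 were higher in B-MF (median log2 0.55), against 22.2% of all genes. They ran from mt-Co1 of complex IV (log2 0.29) to mt-Atp6 of complex V, with 236 and 232 counts in B-MF against 138 and 143 in Mo-MF (log2 0.73 ± 0.06, adjusted p = 1.6e-05). Their sum was 1312 and 1329 against 876 and 917, 47.3% more in B-MF, and 50.8% more when the high-mitochondrial cells were kept. It was 41.5% more without the neutrophil-rich cells. Per count of a member there were 3.61 and 3.67 mitochondrial-encoded counts in B-MF against 2.73 and 2.81 in Mo-MF. The share of mt- genes in all counts, often read as a sign of cell quality, was 6.84% and 7.09% for the B-MF cells kept, against 4.60% and 4.83% for Mo-MF, and its part in the result was not tested.

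Other mitochondrial lists moved less evenly. The TCA cycle list also holds Pdha1, Pdhb, Dlat and Pdhx of pyruvate dehydrogenase, none of them called. Of its 18 genes tested, 6 were higher in B-MF (22.2% of all genes were higher). None was lower (0 also at an unadjusted p under 0.05), and the median was 0.11. Fh1, fumarate hydratase, which follows complex II in the cycle, had 1.80 and 1.66 counts in B-MF against 0.749 and 0.757 in Mo-MF (log2 1.10 ± 0.06, adjusted p = 2.13e-06). Of 30 assembly factors of complexes II to V, 5 (16.7%, under the 22.2% of all genes) were higher and 1, the copper chaperone Cox17, was lower (log2 -0.36). Of 20 genes for electron entry, carriers, coenzyme Q and exchange of ATP, 4 (20%, also under it) were higher. Among the 4 were the ADP/ATP carriers Slc25a4 and Slc25a5 (log2 0.38 and 0.22), and no tested gene of coenzyme Q (Coq genes and Pdss2) was called. The 1 lower gene was Cycs, which encodes cytochrome c, with 1.20 and 1.07 counts in B-MF against 1.45 and 1.47 in Mo-MF (log2 -0.34 ± 0.07, adjusted p = 0.0044). Without the neutrophil-rich cells the TCA cycle list had 6 higher and the carriers 4 higher and 1 lower, as before. The assembly factors had 5 higher and 2 lower. Of all genes in that setting, 20.3% were higher and 14.8% lower. Cyc1, the cytochrome c1 of complex III, had 1.75 and 1.74 counts against 1.72 in each Mo-MF culture and was not called (log2 0.02).

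Glycolysis genes leaned the other way. Of 17 tested, 10 were lower in B-MF, against 15.5% of all genes, and 2 were higher, against 22.2%, with a median of -0.25. The lactate exporter Slc16a3 had 0.491 and 0.420 counts in B-MF against 1.22 and 1.07 in Mo-MF (log2 -1.17 ± 0.08, adjusted p = 9.48e-06), and hexokinase Hk3 had 2.13 and 2.21 against 3.83 and 3.67 (log2 -0.76 ± 0.06, adjusted p = 1.47e-05). These values of Slc16a3 and Hk3 include the neutrophil-rich cells. Without those cells 8 glycolysis genes were lower, against 14.8% of all genes, and the median was -0.08. Of 12 regulators of mitochondrial biogenesis tested, 1 was lower (8.33%, under the 15.5% of all genes), the nuclear receptor Esrra (log2 -0.19 ± 0.06, adjusted p = 0.0439). Myc, also known as a driver of growth and division, had 0.435 and 0.411 counts against 0.0704 and 0.0746. It passed the limit of 0.1 counts only through B-MF, where it is high, so its values are a description.

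In B-MF and Mo-MF alike, cycling cells held more counts of most members. Cells with at least 3 of 8 cycling genes (Mki67, Top2a, Cenpf, Birc5, Ube2c, Mcm5, Mcm6 and Uhrf1) summed to 424, 416, 383 and 390 counts over the members in B-MF 1 and 2 and Mo-MF 1 and 2, and the other cells to 355, 356, 315 and 320. Cycling cells were higher in each of the 4 cultures, by log2 0.26 in the mean (exact permutation test of the signs, two-sided p = 0.125, the smallest that 4 libraries can give). Per 10000 counts the difference was log2 0.195. Of 85 members, 75 (88.2%) were higher in cycling cells in all 4 cultures, compared with 71.7% of all genes, so a high share was common to the transcriptome. Genes detected and markers moved with cycling too. The median of genes detected per cell was 4486.5 to 4646 in cycling cells and 3348 to 3840 in the others. In Mo-MF the neutrophil genes summed to 270 and 182 in cycling against 139 and 114 in other cells, and the granule genes to 81.7 and 46.9 against 16.4 and 11.1. In B-MF the macrophage genes summed to 114 and 115 against 162 and 155. Their part in the result was not tested. The exceptions with lower counts in all 4 were Cox7a2l, a factor that joins complexes III and IV, Uqcrh, Ndufa1 and Ndufa7. Cox7a2l had 6.93, 7.08, 6.56 and 6.56 counts in cycling cells and 8.79, 8.65, 7.48 and 7.57 in the others.

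In the tumor, the cells sorted as TAM divided by marker genes into 4820 neutrophil-like cells (no Csf1r count and at least 3 of the 5 neutrophil genes) and 3292 Csf1r-positive cells (a Csf1r count and at most 3 neutrophil genes) of 10885. A further 1867 cells had a Csf1r count and 4 or 5 neutrophil genes, and 906 fell in no class. Of the neutrophil-like cells 555 had exactly 3 neutrophil genes. Of the Csf1r-positive cells 909 had a single Csf1r count and 710 had exactly 3 neutrophil genes. These cells lie next to the limits of the classes. The 4 libraries, numbered 2 to 5 in the table, could not be matched to the numbers in the labels, and each gave 1025 to 1469 neutrophil-like and 452 to 1407 Csf1r-positive cells. The summed neutrophil genes came to 978 to 1094 counts per cell in neutrophil-like cells (median total 7480 to 7518) and to 25.8 to 48.2 in Csf1r-positive cells (median total 8531 to 8586), and the summed macrophage genes to 5.34 to 8.02 and 22.8 to 39.9. The median of genes detected per cell was 1345 to 1395 and 2555 to 2586. The mt- genes held 1.44% to 1.69% and 2.93% to 3.52% of counts. Cycling cells made up 1.51% to 2.31% of the neutrophil-like and 6.99% to 10.2% of the Csf1r-positive cells. In the same order, the B-cell genes summed to 0.262 to 1.09 and 0.314 to 0.473 counts per cell. The dendritic genes summed to 0.123 to 0.361 and 0.111 to 0.388. The authors had removed cells with few genes, and the part of these differences in the results was not tested.

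Neutrophil-like cells held far less respiratory chain RNA than Csf1r-positive cells of the same tumors. The 89 members summed to 65.9, 66.7, 69.9 and 68.1 counts per cell in the neutrophil-like cells of libraries 2, 3, 4 and 5, and to 171, 178, 179 and 172 in the Csf1r-positive cells. The classes did not overlap, and the ratio of the means was 0.387 (log2 -1.37, exact permutation test of the signs, two-sided p = 0.125, the smallest possible). Of 78 members tested, 77 were lower, against 71.1% of all 6020 genes tested, and 1 was higher, against 18.6% of all genes (limma with library as a block, Benjamini-Hochberg adjusted p under 0.05). Among the 78, Ndufs1 and Ndufaf3 passed the limit only through Csf1r-positive cells and Ndufaf7 only through neutrophil-like cells, so these 3 had to differ. Because most genes were lower on this scale, the size of the difference carries more than the count. The median log2 difference was -1.41 for the members and -0.60 for all genes, and 73 of the 78 lay below the median of all genes. The median of all genes moved with the scaling, to -0.52 per 10000 counts, -0.81 with a pseudocount of 0.01 and -0.16 with a pseudocount of 1, and the members lay 0.55 to 0.81 below it on each of these scales.

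Complex I core subunits summed to 1.41, 1.33, 1.43 and 1.42 counts in neutrophil-like cells and to 5.02, 5.52, 5.29 and 4.99 in Csf1r-positive cells (log2 -1.90). All 7 were lower, against 71.1% of all genes. Ndufs8 was at one end (0.164, 0.176, 0.147 and 0.139 against 0.843, 1.002, 0.891 and 0.886 counts, log2 -1.97 ± 0.06, adjusted p = 1.6e-10). Ndufs1, the largest iron-sulfur subunit, was at the other end, with 0.0937, 0.0865, 0.113 and 0.0974 against 0.267, 0.243, 0.341 and 0.259 (log2 -0.93, a description). In each library and for each core subunit the neutrophil-like cells were the lower class. Ndufs8 was thus the core subunit with the largest difference in the tumor as well as in the cultures.

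All 29 accessory subunits were lower, against 71.1% of all genes, and over a wide range (median log2 -1.40). Ndufc2 had 0.185, 0.148, 0.222 and 0.163 counts in neutrophil-like cells and 1.11, 1.27, 1.28 and 1.13 in Csf1r-positive cells (log2 -2.22 ± 0.07, adjusted p = 2.3e-10). Ndufa7 was nearly level, with 1.39, 1.41, 1.36 and 1.47 against 1.62, 1.63, 1.72 and 1.68 (log2 -0.23 ± 0.06, adjusted p = 0.00261), and per 10000 counts it was no longer called (log2 -0.09). Ndufv3 and Ndufb9 (log2 -0.41 and -0.59) were the other accessory subunits above the median of all genes. Among the assembly factors, 3 were tested and 5 were too low. Ndufaf7 was the member with higher values, with 0.177, 0.116, 0.151 and 0.160 counts in neutrophil-like cells and 0.0661, 0.0974, 0.0797 and 0.0986 in Csf1r-positive cells (log2 0.43). These values lie near the limit of 0.1 counts for testing, which Ndufaf7 passed only through the class where it is high, so they are a description. Ndufaf8 had 0.122, 0.1095, 0.151 and 0.133 against 0.453, 0.416, 0.438 and 0.423 counts and was lower (log2 -1.22 ± 0.06, adjusted p = 3.96e-09).

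Complex II summed to 1.09, 1.18, 1.21 and 1.14 counts in neutrophil-like and 2.55, 2.78, 2.89 and 2.58 in Csf1r-positive cells (log2 -1.22). Its 4 genes were all lower, against 71.1% of all genes. Sdhc had 0.145, 0.145, 0.139 and 0.149 against 0.579, 0.5, 0.582 and 0.581 (log2 -1.43 ± 0.06, adjusted p = 1.07e-09). Sdha had 0.314, 0.293, 0.291 and 0.289 against 0.527, 0.522, 0.565 and 0.422 (log2 -0.61 ± 0.07, adjusted p = 3.45e-06), close to the median of all genes. Sdhc and Sdha were also the called and an uncalled member in the cultures, and whether the 2 genes differ from each other was not tested.

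In complex III (log2 -1.46 in the sum) the range ran from Uqcr11, a small subunit, to Uqcrq, which lies at the membrane. Uqcr11 had 0.533, 0.482, 0.543 and 0.552 counts against 2.19, 2.12, 2.41 and 2.13 (log2 -1.88 ± 0.06, adjusted p = 1.92e-10). Uqcrq had 1.81, 1.78, 1.92 and 1.77 against 3.52, 3.52, 3.54 and 3.44 (log2 -0.91 ± 0.05, adjusted p = 2.02e-08). All 8 genes were lower, against 71.1% of all genes. Cyc1, the partner of these subunits, was lower by a similar amount (log2 -1.80), while Cycs was lower by less (log2 -0.62).

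Complex IV held a larger share of the members' counts in neutrophil-like cells (36.5% to 36.9% per library) than in Csf1r-positive cells (32.5% to 32.7%). All 12 tested genes were lower (log2 -1.20 in the sum), against 71.1% of all genes. Cox8a, a small membrane subunit, differed least, with 5.40, 5.72, 5.49 and 5.59 counts against 7.53, 7.41, 7.71 and 7.43 (log2 -0.43 ± 0.06, adjusted p = 1.64e-05). Ndufa4 differed most among all members, with 0.497, 0.496, 0.567 and 0.521 counts in neutrophil-like cells and 2.92, 3.22, 3.33 and 3.20 in Csf1r-positive cells (log2 -2.40 ± 0.06, adjusted p = 4.23e-11). Complex V (log2 -1.50 in the sum) ran from Atp5g1, with 0.421, 0.305, 0.456 and 0.394 against 2.51, 2.20, 2.49 and 2.26 (log2 -2.33 ± 0.06, adjusted p = 9.79e-11), to Atp5l of the membrane part, with 3.48, 3.68, 3.70 and 3.69 against 5.93, 6.12, 6.13 and 6.26 (log2 -0.73 ± 0.05, adjusted p = 1.18e-07). The other ring genes, Atp5g2 and Atp5g3, were lower by log2 1.93 and 1.90. All 15 tested genes of complex V were lower, also against 71.1% of all genes.

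**Figure D3:**
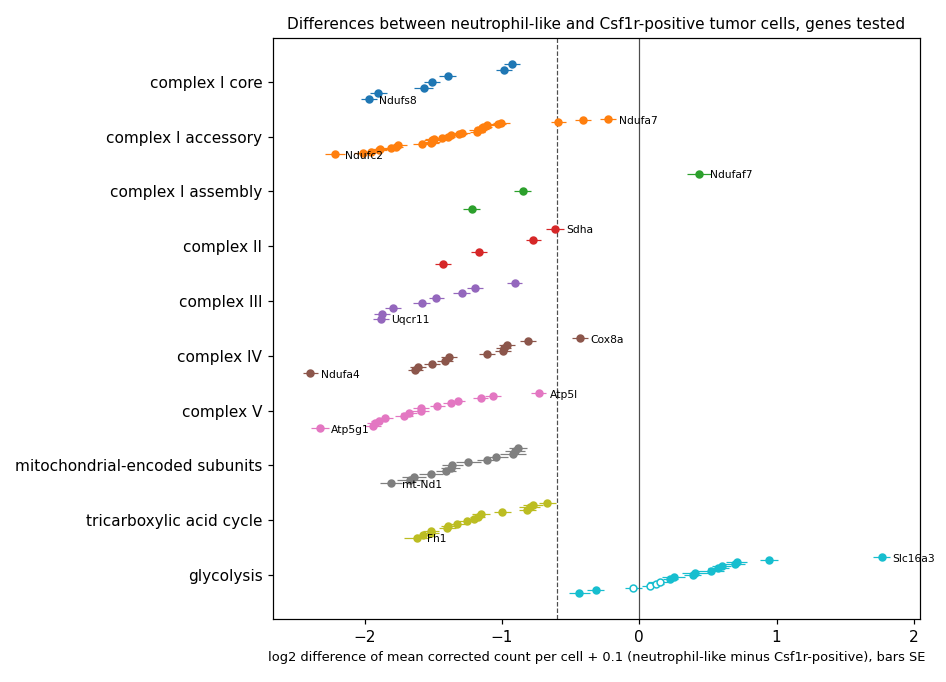
Log2 difference of the mean corrected count per cell + 0.1 between neutrophil-like and Csf1r-positive tumor cells (x axis, neutrophil-like minus Csf1r-positive, bars are SE) for each tested gene of each complex and of 3 further lists; filled symbols passed an adjusted p of 0.05, and the dashed line is the median of all genes tested. All complexes lie to the left of 0 except Ndufaf7, with Ndufa4 and Atp5g1 farthest out, while most glycolysis genes lie to the right.

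Among the members too low to test in the tumor, Cox7a1 was at 0.0117 to 0.0131 counts in neutrophil-like cells and 0.0616 to 0.103 in Csf1r-positive cells. Cox4i2 was at 0.0166 to 0.0456 and 0.0398 to 0.166, and Cox6b2 at 0.00238 to 0.00885 and 0.0789 to 0.0904. Ndufa4l2 and Cox6a2 reached at most 0.0247 and 0.0114 counts in the neutrophil-like or Csf1r-positive cells of any library, and Atp5s at most 0.0221. Ndufaf1, Ndufaf2, Ndufaf4, Ndufaf5 and Ndufaf6 made up the rest of the 11, all with lower values in the neutrophil-like cells of each library.

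Ndufa4 has a known replacement, AA467197, whose product takes the place of Ndufa4 in complex IV and is known to be induced by inflammation. The gene was chosen for this relation and is not one of the 89. In the tumor AA467197 had 4.86, 3.60, 4.80 and 5.06 counts in neutrophil-like cells and 0.278, 0.228, 0.297 and 0.345 in Csf1r-positive cells (log2 3.59 ± 0.06, adjusted p = 8.2e-12), opposite in direction to Ndufa4. Tumor cells with Csf1r and 4 or 5 neutrophil genes lay between, at 2.17 to 3.71 counts of AA467197. In the cultures AA467197 was at 0.0282 and 0.0220 in B-MF against 0.249 and 0.159 in Mo-MF. It passed the limit for testing only through Mo-MF, and without either Mo-MF library it was too low to test, so these values are a description. Without the neutrophil-rich cells it was at 0.0519 and 0.0534 in Mo-MF, too low to test, and in the neutrophil-rich Mo-MF cells alone it was at 1.84 and 1.12, with Ndufa4 at 4.55 and 4.81.

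**Figure D4:**
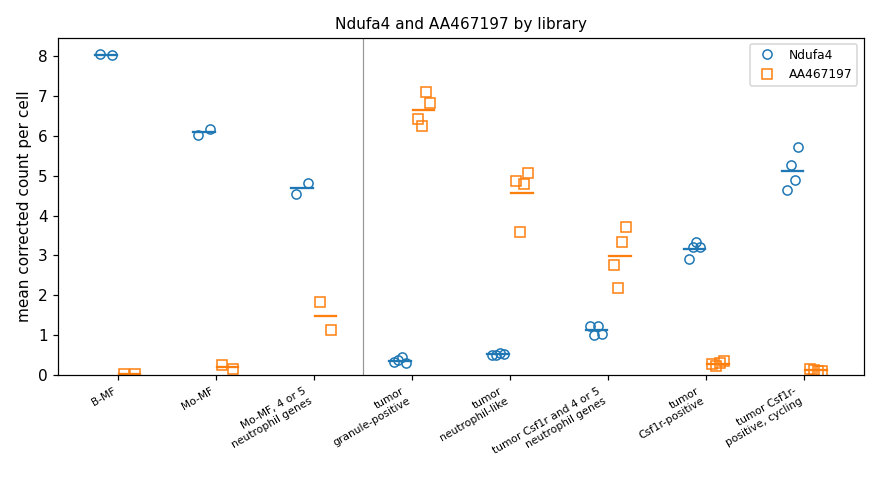
Mean corrected count per cell of Ndufa4 (circles) and AA467197 (squares) in each library of each class of cells, with short lines for the mean of the libraries; cultures are left of the vertical line and tumor classes right of it, and the 2 sides were scaled separately. Across the tumor classes Ndufa4 is lowest in granule-positive and neutrophil-like cells and highest in cycling Csf1r-positive cells, and AA467197 runs in the opposite order.

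The pathway lists placed the members beside related genes in the tumor. Of their tested genes, 5 of the TCA cycle, 7 of the assembly factors, 2 of the carriers and 1 each of the mitochondrial-encoded and glycolysis lists passed the limit through 1 class only and had to differ. All 13 mitochondrial-encoded subunits were lower in neutrophil-like cells (median log2 -1.36), with sums of 115, 111, 128 and 111 against 246, 297, 257 and 260 counts. All 16 tested genes of the TCA cycle list were lower (median -1.23). So were 15 of 19 assembly factors of complexes II to V, of which only Cox17 was higher (log2 0.66). Of 11 genes for electron entry and carriers, 10 were lower, with the carrier Slc25a4 at log2 -2.16. Over all genes 71.1% were lower, and 18.6% were higher. Of 17 glycolysis genes, 11 were higher and 2 lower (median 0.39), led by Slc16a3 with 9.35, 8.03, 7.77 and 9.03 counts against 2.38, 2.27, 2.37 and 2.76 (log2 1.76 ± 0.06, adjusted p = 3.96e-10).

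The other classes of tumor cells had levels of their own. Cells with Csf1r and 4 or 5 neutrophil genes summed to 98.4, 92.6, 102 and 89.8 counts over the members, above the neutrophil-like and below the Csf1r-positive cells of each library. Granule-positive cells, neutrophil-like cells with at least 3 of 5 granule genes of immature neutrophils, summed to 55.2, 60.8, 59.9 and 55.5 (28 to 94 cells per library), below the other neutrophil-like cells of each library (log2 -0.24, or -0.42 per 10000 counts). Their neutrophil genes summed to 3166 to 3328 against 912 to 943 in the other neutrophil-like cells, and their mt- share was 0.852% to 1.09% against 1.46% to 1.72%, and the part of these in the result was not tested. Of 73 members, 38 were lower in all 4 libraries (52.1%), compared with 58.0% of all genes, so the members did not stand out. Ndufb7 was higher by log2 1.002 in the mean. The summed accessory subunits of complex I changed sign between libraries (log2 -0.02, range -0.16 to 0.05, or -0.20 per 10000 counts). The sums of the other groups of members were lower in each library. Csf1r-positive cells with counts of all 3 C1q genes were higher than those with fewer by log2 0.11 in the mean of the sums, with a range of 0.00 to 0.25 over the libraries, and the sums of complexes IV and V and of the complex I core changed sign between libraries. Of the cells with all 3 C1q genes 20.4% to 23.2% were cycling, and of the others 1.95% to 8.93%. The B-cell genes summed to 0.531 to 1 in cells with all 3 C1q genes and to 0.140 to 0.390 in the others. The macrophage genes, which include the C1q genes, summed to 67.2 to 89.2 and to 17.4 to 21.7. The mt- share was 3.28% to 3.68% and 2.68% to 3.53%. The part of cycling and of these in the difference was not tested.

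Cycling Csf1r-positive cells had the highest levels of the tumor classes that were summed, with 245, 241, 240 and 242 counts over the members. Non-cycling Csf1r-positive cells had 165, 171, 173 and 167. The ratio was 1.43, in the same direction in all 4 libraries (two-sided exact permutation p = 0.125, the smallest possible). Of 79 members, 71 (89.9%) were higher in cycling cells in each library, whereas 28.8% of all genes were. The median difference was 0.56 for the members and -0.02 for all genes. The largest was that of Ndufa12, an accessory subunit of complex I (log2 1.10 in the mean), followed by Ndufa5 (1.04). Uqcrh, with 4.16, 3.89, 3.98 and 4.24 counts in cycling and 4.56, 4.97, 4.71 and 5.28 in non-cycling cells, and Cox7a2l were the 2 members lower in each library, and both had also been lower in the cycling cells of each culture. AA467197 was at 0.0980 to 0.148 in cycling Csf1r-positive cells. Markers moved with cycling here as well. The macrophage genes summed to 87.6, 23.7, 32.1 and 44.4 in cycling against 35.9, 22.7, 24.4 and 25.9 in non-cycling Csf1r-positive cells, and the B-cell genes to 0.667 to 1.45 against 0.259 to 0.458. The share of mt- genes was 3.80% to 4.07% against 2.85% to 3.47%. Their part in the result was not tested.

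The culture and tumor differences were set side by side for the 78 members tested in both tables. Over these 78 genes, the difference B-MF minus Mo-MF and the difference neutrophil-like minus Csf1r-positive had a Pearson r of -0.40 and a Spearman rho of -0.40, and over all 5761 genes tested in both the values were -0.36 and -0.29, near those of the members. Genes are not independent replicates, the comparisons share no library, and the values are given as a description. Without the neutrophil-rich culture cells the values were -0.35 and -0.36 for the members and -0.12 and -0.15 for all genes.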

How the data were processed

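scRNA-seq was available for 2 B-MF, 2 Mo-MF and 4 tumor libraries, and ATAC-seq for 12 libraries. For scRNA-seq the authors used Cell Ranger, removed cells with few detected genes and deposited SCTransform-corrected counts as ln(count + 1), a natural log, in 1 table for the cultures and another for the tumor, so levels were not compared between them. Converted back, the values were whole within 0.002. The depth before correction is unknown, and counting error cannot be given. For ATAC-seq the authors trimmed reads with cutadapt, aligned them to mm10 with BWA, called peaks with MACS2 in each library and deposited for each peak its position and fold enrichment. A promoter had a peak where at least 1 base overlapped.

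Counts were averaged over the cells of each library. Log2 of the mean + 0.1 was compared with limma 3.58.1 (lmFit and eBayes, R 4.3.3) where the mean over libraries reached 0.1, and p-values were adjusted over all such genes by Benjamini-Hochberg. A count model would not fit corrected values. In the tumor, the classes were paired by library. Sums were compared by exact permutation over libraries. The steps were tested on simulated data. Nothing says that cultures of a group came from separate mice, so p-values measure the spread between these libraries, which may be technical. Any member could be named, and values per library were given by a rule for the ends of each group, the paralogs and every member called lower in B-MF. Other members with such values and genes of the other lists were picked after their values were seen. The members, lists and tests were chosen with earlier results of these data known. Alternatives covered pseudocount, filter, scaling, cells and libraries. Leaving out cells with at least 4 neutrophil genes, at most 2 neutrophil genes in Csf1r-positive tumor cells, and leaving out cycling tumor cells were added after the data were seen. Some items that this rule would name are not reported here.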

Additional observations from a re-analysis of the deposited data

Results flagged for a closer look

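Of 103 groups of 4 libraries, 9 held a library far from the other 3 (a gap to the nearest library, over the range, above Dixon's critical value), where chance gives about 1 in 20 groups. Library 2 stood apart for Sdha (0.314 counts in neutrophil-like cells, others 0.289 to 0.293), for Atp5l (3.48, others 3.68 to 3.70) and for Cox6a2 (0.00878, others at most 0.000681). It also stood apart for the sum of complex III in cycling Csf1r-positive cells (25.0, others 23.2 to 23.3). Library 3 was the low one for Sdhc in Csf1r-positive cells (0.5 counts, others 0.579 to 0.582) and for the complex I core sum in neutrophil-like cells (1.33, others 1.41 to 1.43). The sum of complex I assembly factors was low there too, in neutrophil-like cells (0.419, others 0.483 to 0.492) and in cycling Csf1r-positive cells (1.5, others 1.88 to 1.91). Ndufa4l2 had 0.00281 counts in the neutrophil-like cells of library 4 and 0 in the others.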

How the results depend on the processing

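In the cultures the number of members higher in B-MF (41, with 22.2% of all genes higher) fell to 27 with a pseudocount of 0.01 (17.7% of all genes) and ranged from 9 to 56 when 1 library was left out. Without a Mo-MF library the remaining one was taken to vary like the others. Members lower in B-MF (0) numbered 2 with a pseudocount of 1, without the filter, per 10000 counts or with all cells. They numbered 4 with means of the log values, and 1 in Csf1r-positive cells or without cells with at least 4 neutrophil genes. Of all genes, 9.88% to 18.4% were lower in these settings. Ndufa3 and Ndufb7 made up the 2, Atp5k and Sdhd joined them in the 4, and Ndufa3 was the 1. The cause was not tested. Of the 41 calls, 25 held in all 12 other alternatives, and all 41 kept their direction. With a replicate block 42 members were higher (26.5% of all genes) and 0 lower. Same-numbered culture libraries deviated together only weakly (correlation 0.15 over 8664 genes, 2 pairs), so the numbers were not taken to pair them. In the tumor, 77 of 78 calls held in all 11 alternatives and 78 in the 4 fits without 1 library. Per 10000 counts 76 members were lower (66.7% of all genes), and with no replicate block 77 (70.1% of all genes). With 2 cultures per group the spread rests largely on all genes together.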
